A study of Homo sapiens with 6 samples.

Results

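The 2 replicate Hi-C maps of SW480 were compared with each other, out of 6 maps of the series. SW480 is a colon cancer cell line. Both maps were chosen by their labels, replicate 1 and replicate 2, and no measured value was used in the choice. In Hi-C, crosslinked chromatin is cut and ends that lie near each other are joined and sequenced, so that each read pair reports a contact between a pair of loci. The series also holds 1 map each of SNU-C1 (colon cancer), HCC1954 (breast cancer) and OE33 (esophageal adenocarcinoma), and an SW480 map without a replicate number. No line carried a treatment or an added allele according to the labels, and all maps were made by the in situ protocol with MboI, with the same range of cell numbers per experiment. Each line is a single established cancer cell line with its own copy number and rearrangements, so that a difference between lines is not a difference between tissues.

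Chromosomes fold at several scales. Topologically associating domains (TADs) are stretches that contact themselves more than their neighbours, and the boundaries between them often carry sites of CTCF, the protein that halts cohesin as it extrudes loops. At a larger scale, gene-rich, mostly active chromatin (the A compartment) contacts other A chromatin, and gene-poor, mostly silent chromatin (the B compartment) contacts other B chromatin. An insulation score measures how much contact passes over a position, a boundary is a local minimum of that score, and a compartment vector is positive in A and negative in B.

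The deposited maps use 40-kb bins of hg19. The CTCF core motif was the sequence feature counted at boundaries, and its matches at the strongest ones are shown. Of the 10 strongest boundaries that both SW480 replicates shared, 2 had a match to this motif within 1 bin of the boundary, both on chromosome 1. This is below the share of all usable bins with such a match, 33.6%, and of all shared boundaries, 49.9%. The comparison rests on only 10 boundaries and was not tested. The 28 bases around each match are given 5′ to 3′ on the strand of the motif, in the GRCh37 sequence, with the 12 matched bases in capitals. The first lies on the reverse strand at chr1:60292839-60292866, beside the boundary near HOOK1 and CYP2J2, and the second on the forward strand at chr1:218433279-218433306.
Boundary near HOOK1 and CYP2J2: aaattgtgCCAGCAGATGGCtttccaac
Boundary at 218.36 Mb of chromosome 1: cagcatacCCACTAGGTGGCaataacac

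Read pairs were recovered from the corrected values. Within autosomes there were 63521353 read pairs in replicate 1 and 64866967 in replicate 2, without pairs within a bin. The other lines held 111648327 (SNU-C1), 89447829 (HCC1954) and 86857086 (OE33), and every map was thinned to the depth of replicate 1 before it was compared. Of 72036 autosomal bins, 62194 reached 0.25 of the median coverage in each of the 5 maps and were used. The unnumbered SW480 map was the pool of the replicates, with the same read pairs as their sum at 99.9% of 27575043 bin pairs, and was left out.

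In read pairs per bin, and per bin pair at short distances, the replicates differed by little more than counting error. The variance of the split of read pairs between the replicates was taken over bin pairs seen in at least 1 of them. It was 1.04 to 1.08 times the variance that counting alone gives, from 40 kb to over 20 Mb. A bin pair with 1 read pair in total gives about 1 whatever the replicates do. Beyond 20 Mb the means were 0.591 and 0.607 read pairs, so the ratio can show little excess there. At 40 kb, with means of 148 and 151 read pairs, the ratio was 1.07. For coverage per bin the ratio was 1.14. The study calls its Hi-C replicates biological. The labels do not say whether they came from separate cultures, so how much of their spread is technical is not known. The methods describe Hi-C in duplicate, and whether the single maps of the other lines pool replicates is not known either. With 2 maps of SW480 and 1 map of each other line, only the SW480 pair gives a spread between samples. No test over samples was made, and correlations over bins are given as descriptions without p-values, since neighbouring bins share reads and are not independent.

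Coverage, insulation, boundaries, compartments and contacts at distances up to 5 Mb were all closer between the SW480 replicates than between either replicate and any other line. The deposited SW480 maps also differ in make-up from those of the other lines. They list 69696 and 69691 values within a bin, against 0 in each other line, and far fewer values between chromosomes. A difference between lines cannot be told apart from a difference in how the maps were made. Coverage is the number of read pairs within a chromosome that touch a bin, without pairs within a bin. On the log2 scale, it correlated with r = 0.994 between the replicates over 62194 bins. Between a replicate and another line, r was 0.464 to 0.582. The insulation score correlated with r = 0.997 over 59294 bins, against 0.902 to 0.915. The compartment vector correlated with r = 0.993 over 12510 blocks of 200 kb, against 0.808 to 0.852. The ranks gave the same picture, with Spearman's rho between the replicates of 0.993, 0.997 and 0.990. On each of the 22 chromosomes, coverage, insulation, boundaries and compartments were closer between the replicates than in all 6 comparisons of a replicate with another line. The mean correlation within distances was closer on 20 of the 22.

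**Figure D1:**
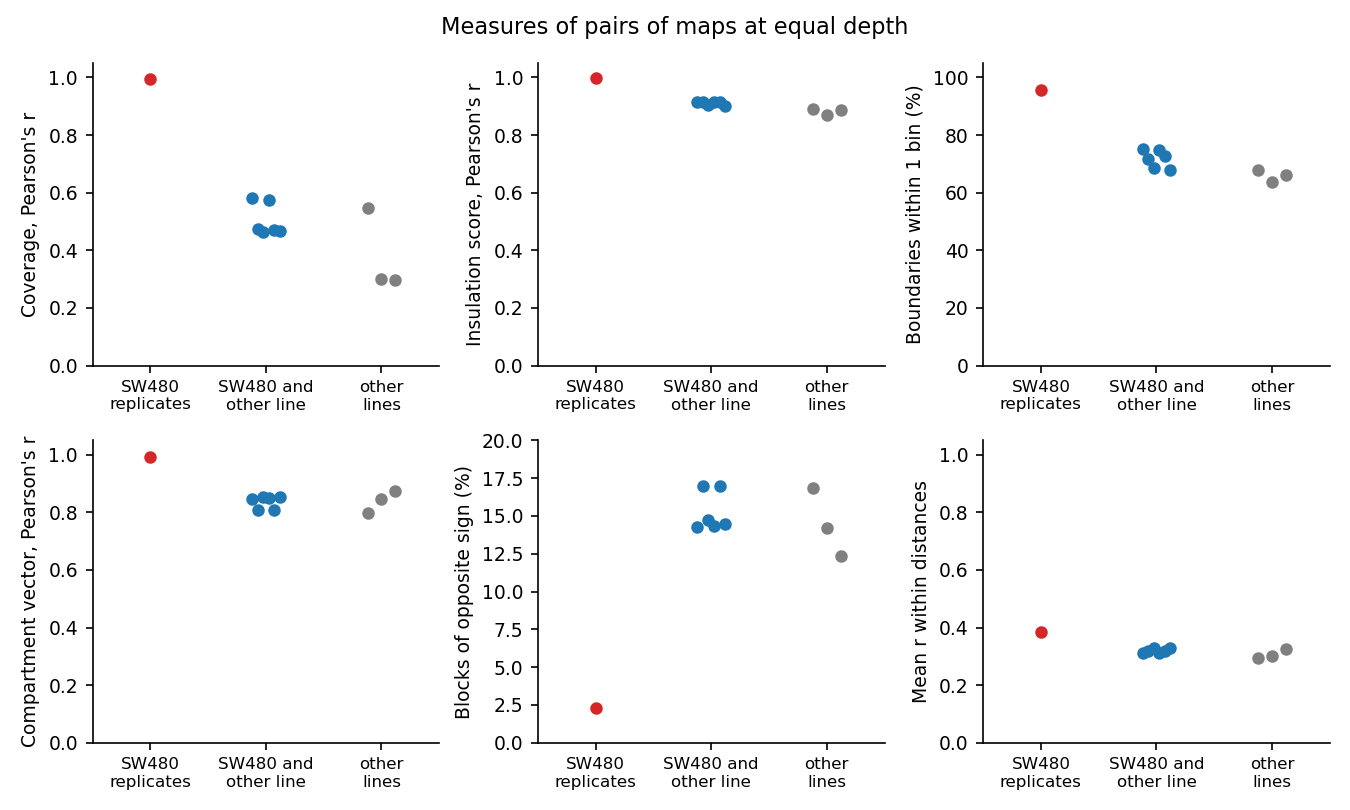
Each panel plots 1 measure for pairs of maps thinned to the same total of autosomal read pairs, with 1 point for the SW480 replicates (red), 6 points for a replicate and another line (blue) and 3 points for pairs of the other lines (grey). The replicate point is the highest in every panel of agreement and the lowest, at 2.28%, in the panel of blocks of opposite sign.

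Coverage followed the chromosomes of SW480 closely in both replicates. Chromosome 7 had a median relative coverage, where 1 is the autosomal median of the map, of 1.52 in replicate 1 and 1.53 in replicate 2. Chromosome 22 was the lowest, at 0.691 and 0.695. MYC, a transcription factor that drives growth, lay in a bin with a relative coverage of 14.5 in replicate 1 and 14.9 in replicate 2, against 2.74 in replicate 1 for the next highest gene of the lists, COL1A2, a collagen. SMAD4, a mediator of TGF-beta signalling, lay in a bin at 0.147 and 0.142, below the minimum for a usable bin. Both replicates thus gave nearly the same levels for these chromosomes and genes.

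The ratio of coverage between the replicates had an SD of 0.051 on the log2 scale, and 94.6% of bins lay within 0.1 of equality. The largest difference of a single bin was 0.27. The 5 chromosomes with the largest differences were 19 (log2 of replicate 2 over replicate 1 of 0.021), 17 (0.0092), 22 (0.0076), 21 (-0.0047) and 8 (-0.0042). Chromosomes 19, 22 and 17 also had the highest GC contents among the autosomes, at 48.5%, 47.8% and 45.4%. Across bins, the log2 ratio correlated with GC content with r = 0.14 and with the number of MboI sites with r = 0.108. In the tenth of bins with the highest GC content, from 48.1% to 61.7%, replicate 2 was higher by 0.018 on average, against an SD of 0.058 between those bins. What GC content contributes to other differences was not tested.

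Among 2496 windows of 1 Mb, 1 differed by more than 0.1 on the log2 scale. It lies at 89 to 90 Mb of chromosome 16 and holds ANKRD11, a chromatin regulator, SPG7, a mitochondrial protease, and RPL13, a ribosomal protein. It had 15259 read-pair ends in replicate 1 and 16985 in replicate 2, which is 0.12 higher in replicate 2 after scaling to the total. The next windows were at 3 Mb of chromosome 19, with GNA11 and NFIC (0.083), at 4 Mb of chromosome 18, with DLGAP1 (-0.062), and at 7 Mb of chromosome 17, with DLG4 and ACADVL (0.057). In 3 of these 4 windows replicate 2 was the higher. The relative coverage of the first window was 0.467 and 0.526, and that of the second 0.328 and 0.35, so both lay in the lower range of the usable genome.

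The insulation score used the contacts between the 25 bins before and the 25 bins after a bin, as log2 over the mean of the chromosome. The difference between the replicates had an SD of 0.031, and counting error alone gave an SD of 0.033. Without iterative correction these were 0.034 and 0.032. Between a replicate and another line the SD of the difference was 0.15 to 0.18, with a counting error of 0.033 to 0.034. None of 59294 bins (0%) differed by 0.2 or more between the replicates. Between a replicate and SNU-C1, HCC1954 or OE33, 16.3% to 21.8% of the same bins did.

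Boundaries were called where the score had a minimum with a strength of at least 0.1, the drop of the slope across it on the log2 scale. Replicate 1 had 2447 boundaries and replicate 2 had 2437, and the median distance between neighbours was 840 kb in both. Of the boundaries of replicate 1, 95.7% (2341; exact 95% interval 94.8% to 96.4%) had one in replicate 2 within 1 bin, and 96.1% (95.2% to 96.8%) held in the other direction. The share found in another line was 67.7% to 75.1%. Of the replicate 1 boundaries, 1799 (73.5%) lay in the very same bin of replicate 2 and a further 542 one bin away. The other lines shared the same bin for 34% to 37.3% of them. The strengths of the 2341 shared boundaries correlated with r = 0.988, and their difference had an SD of 0.056 around a median strength of 0.64.

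Weak boundaries were matched less often, with intervals for the weakest and strongest groups that do not overlap. The boundaries of replicate 1 were split by strength into 4 groups of 611 or 612. In the weakest group, from 0.10 to 0.40, 86.9% (84% to 89.5%) were found in replicate 2. In the strongest group, from 0.90 to 2.45, it was 99.7% (98.8% to 100%), or 610 of 612. The same groups were found in OE33 at 40.4% and 87.4%, in HCC1954 at 49.2% and 87.1% and in SNU-C1 at 53.9% and 90.8%. In the strongest group the interval for replicate 2 began at 98.8%, and the highest of the other lines ended at 93%. The same boundaries were scored against each map, so these intervals do not measure a spread between samples.

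**Figure D2:**
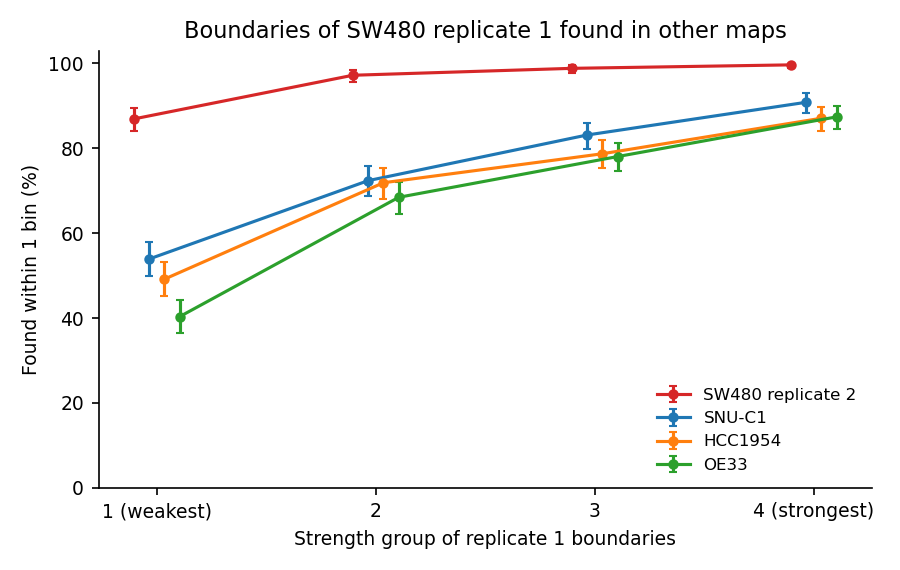
The share of replicate 1 boundaries found within 1 bin in each other map is plotted for 4 groups of boundary strength, with exact 95% binomial intervals. Replicate 2 (red) rises from 86.9% to 99.7% and lies above the other lines in each group.

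The 10 strongest shared boundaries were alike in both replicates, and 9 of them lay in the same bin. The strongest, at chr10:3120001-3160000 beside PFKP, an enzyme of glycolysis, had a strength of 2.45 in replicate 1 and 2.35 in replicate 2. Its insulation score was -1.63 and -1.55, with -1.49 in SNU-C1, -1.45 for HCC1954 and -1.74 for OE33. The boundary beside HOOK1, a microtubule adaptor, and CYP2J2, a cytochrome P450, had strengths of 2.15 and 2.13. It was found in the same bin in all 3 other lines. Strengths of 1.83 and 1.84 marked the boundary near the starts of ATP13A4 and OPA1, which is needed for fusion of mitochondrial inner membranes. At 193.32 Mb of chromosome 3, it was again in the same bin in the other lines.

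The boundary beside PAQR3, at 79.84 Mb of chromosome 4, showed more difference between lines than between replicates. Its insulation score was -1.44 and -1.49 in the replicates, against -0.90 in SNU-C1, -1.14 for HCC1954 and -0.76 for OE33. The boundary beside TFEC, a transcription factor, scored -1.42 and -1.41 in the replicates and between -1.08 and -0.84 in the other lines. The boundary beside AVIL, CTDSP2 and ATP23 was 1 bin apart in the replicates, with strengths of 1.81 and 1.84. RAD23B, a nucleotide excision repair protein, lay beside a boundary with strengths of 1.81 and 1.78. The remaining 3 of the 10, on chromosomes 1, 6 and 10, had no protein-coding gene start in or next to the boundary bin.

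Boundaries with none in the other replicate within 1 bin, here said to be called in 1 replicate, were 106 in replicate 1 and 96 in replicate 2. In each replicate, 20 of them lay 2 bins from a boundary of the other, so the same boundary can be counted from both sides. For 70 and 64 there was none in the other replicate within 5 bins. The median strength of these 134 was 0.24, against 0.64 for the shared ones. The 5 strongest had strengths from 0.69 to 0.97, and yet their insulation scores were nearly equal in both replicates. At 81.52 Mb of chromosome 15 the score was -0.25 in replicate 1, where the boundary was called, and -0.21 in replicate 2. Beside ZNF507, a zinc finger gene on chromosome 19, it was -0.52 and -0.53. Beside ECHDC1, a decarboxylase of acyl-CoA, it was -0.64 and -0.60, and at 69.68 Mb of chromosome 11 it was -0.37 and -0.36. The last of the 5, beside TMEM51, was called in replicate 2 only, with scores of -0.43 and -0.44. All of these differences lay within 0.05, so the calls differed where the scores barely did. The nearest boundary in the other replicate lay 6 or 7 bins away, except on chromosome 11, where it lay 10 bins away. Other lines had a boundary within 1 bin beside ZNF507 (SNU-C1 and HCC1954), ECHDC1 (OE33) and TMEM51 (SNU-C1). They had none within 1 bin at the places on chromosomes 15 and 11.

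Both kinds of boundary were set against the sequence around them. The CTCF core motif, searched on both strands in a degenerate form of 12 bases, matched 12.7% of 72036 bins, and 33.6% of usable bins when both neighbouring bins were counted. Of the 2341 shared boundaries, 49.9% (47.8% to 51.9%) had a match within 1 bin. The boundaries called in 1 replicate, which include those displaced by 2 to 5 bins in the other, had one at 44.6% (37.6% to 51.7%). These intervals overlap. Protein-coding gene starts lay within 1 bin of 64.2% (62.2% to 66.1%) of shared boundaries, of 52% (44.9% to 59%) of those called in 1 replicate and of 42.2% of usable bins. A match to the motif is a description of the sequence and does not show that CTCF is bound.

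**Figure D3:**
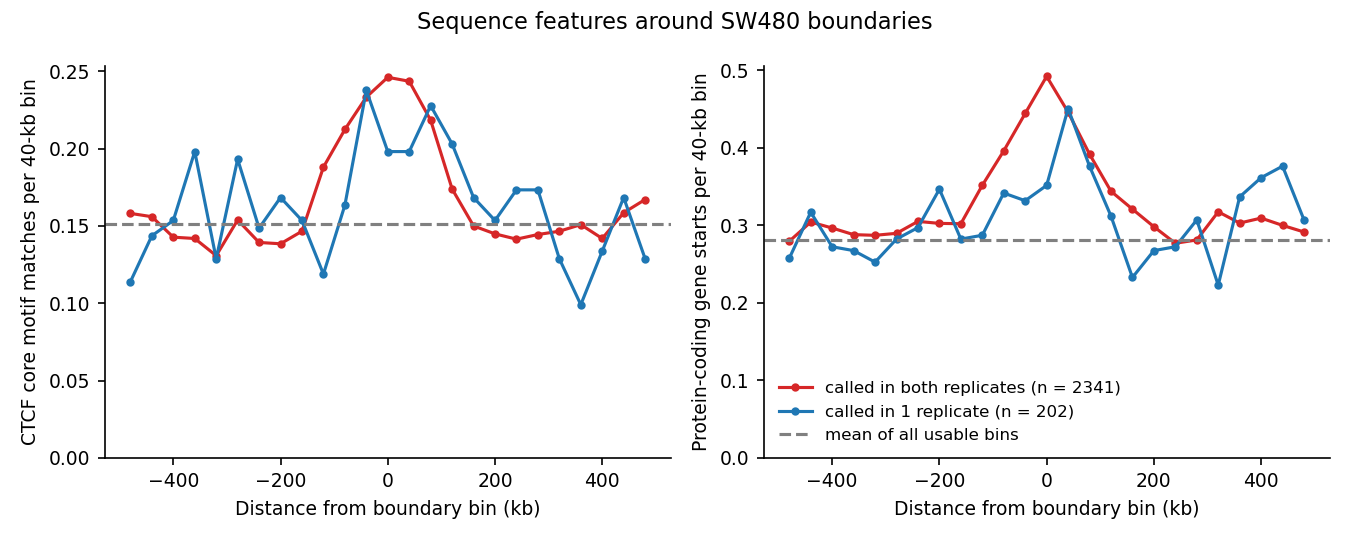
CTCF core motif matches (left) and protein-coding gene starts (right) per 40-kb bin are plotted by distance from boundaries called in both SW480 replicates (red, n = 2341) or in 1 of them (blue, n = 202), with the mean of all usable bins dashed. At shared boundaries matches reach 0.246 per bin and gene starts 0.492, against 0.151 and 0.281 over all usable bins.

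Of the shared boundaries, 1233 were found in all 3 other lines and 198 in none of them. The 1233 had the motif at 53.2% (50.4% to 56%) and gene starts at 70.2% (67.5% to 72.7%). In 41 cases no other line had a boundary within 5 bins, and these had the motif at 34.1% (20.1% to 50.6%) and gene starts at 39% (24.2% to 55.5%). Their median strength was 0.26. The strongest of the 41, chosen after its values were seen, lies at chr5:93840001-93880000. Its strengths were 0.99 and 0.98, and its insulation score was -1.06 in replicate 1 and -1.08 in replicate 2. The other lines scored 0.07, 0.11 and -0.01 there, which is close to the mean of the chromosome. The next strongest were less clear. At 165.68 Mb of chromosome 4 the replicates scored -0.71 and -0.74, and HCC1954 -0.86. Beside ITGA2 they scored -0.48 and -0.52, and OE33 -0.83. At 16.6 Mb of chromosome 8 they scored -0.36 and -0.29, and OE33 -0.37. Beside HS3ST4 both replicates scored below all 3 other lines.

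The compartment vector changed at the same place. From 94.2 to 94.6 Mb of chromosome 5, 2 blocks had values of 1.28 and 1.66 in replicate 1 and of 1.18 and 1.69 in replicate 2, in units of its SD, and so lay in A. The same blocks were at -1.21 and -1.17 in SNU-C1, at -1.15 and -1.03 for HCC1954 and at -0.996 and -0.802 for OE33, and so lay in B. Relative coverage also changed there in both replicates, from 0.863 and 0.9 in the block at 93.6 Mb to 1.54 and 1.6 in the block at 94 Mb. Of the read pairs between chromosomes 5 and 20, the 1-Mb windows at 94 Mb of chromosome 5 and 17 Mb of chromosome 20 held the most, 29 in replicate 1 and 45 in replicate 2, in maps that list far fewer pairs between chromosomes than those of the other lines. The part of the coverage step or of these contacts in the boundary was not tested.

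Compartment signs were opposite in the replicates in 285 of 12510 blocks, or 2.28% (exact binomial 95% interval 2.02% to 2.56%). The interval treats blocks as independent, though the blocks of a chromosome share a vector. By chromosome the share ran from 0.81% on chromosome 11 to 5.52% on chromosome 22. Over all chromosomes it was 3.43% when bins needed a coverage of at least 0.5 of the median. With 1 vector per chromosome arm it was 3.2%. Between a replicate and another line, the share in the main setting was 14.3% to 17%. The 285 blocks lay near 0. The larger of their absolute values had a median of 0.119, it was under 0.3 in 265 of them, and 150 went from A in replicate 1 to B in replicate 2 while 135 went the other way. Of the 9281 blocks past 0.5 in size in both replicates, 0 had opposite signs. No block differed by more than 0.938 between the replicates, so none could have opposite signs at that size. Between replicate 1 and the other lines, 315 of 8161 such blocks did for SNU-C1, 358 of 7773 for HCC1954 and 308 of 8276 for OE33. For replicate 2 these were 332 of 8170, 382 of 7810 and 325 of 8282. These counts include chromosome 19, where 37.1% to 39.6% of all blocks had opposite signs between a replicate and another line. They are not given without that chromosome. A blocks of replicate 1 held 2.13 protein-coding gene starts on average, B blocks 0.592 and blocks of opposite sign 1.32. The sign and the gene density are not independent, because the sign of each vector was set by gene density.

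The 5 blocks with the largest differences lay on chromosomes 19, 22 and 5. At 10 Mb of chromosome 19, with OLFM2 and COL5A3, a collagen, the vector was 0.159 in replicate 1 and -0.779 in replicate 2. At 45.4 Mb of chromosome 22, with NUP50, a nuclear pore protein, it was 0.518 and -0.155. A further 2, at 23 Mb of chromosome 22 (-0.632 and -1.29) and 83.4 Mb of chromosome 5 (-0.725 and -1.38), had no protein-coding gene start and stayed in B. Coverage in all 5 blocks differed little, as at 10 Mb of chromosome 19, where it was 0.819 in both replicates.

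Chromosomes 19 and 22 also had the lowest correlations between the replicates, at r = 0.974 and 0.975, and the highest was 0.996 on chromosome 11. On chromosome 19 the vector most like gene density was the second eigenvector in both SW480 replicates and the first in the other 3 lines. The correlation of a replicate with another line there was 0.234 to 0.367. Without chromosome 19 the replicates differed in sign at 2.24% of blocks, and the replicates and other lines at 14.8% on average. The 3 other lines had the same sign in 9795 blocks, and both replicates had the opposite sign in 589 of these, 513 of them outside chromosome 19. The 589 are 89.8% of the blocks opposite in replicate 1 and 89.9% of those in replicate 2, in comparisons that share the 3 lines. Of the 589, 76 were past 0.5 in all 5 maps, with 46 on chromosome 19 and 30 on 13 other chromosomes. In 22 of the 30, SW480 lay in A, as did 52.4% of all blocks in replicate 1.

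Of the measured genes of 7 lists, all but VIM and MAU2 had the same compartment sign in both replicates. Over all 17514 protein-coding genes in measured blocks, 79.9% lay in A in replicate 1 and 79.7% in replicate 2, and 2.15% had opposite signs. All 15 measured housekeeping genes lay in A in both, with a median of 1.22 and 1.24. They include ACTB, cytoskeletal actin (1.37 and 1.38), and GAPDH, an enzyme of glycolysis (1.43 and 1.42). Of 17 measured long neuronal adhesion and receptor genes, 16 lay in B in both, with a median of -1.16 and -1.14. LRP1B, a large lipoprotein receptor, was the lowest at -1.61 and -1.51, and OPCML, a cell adhesion molecule, was the one in A, at 0.296 and 0.266. Its values in the other lines were -0.761, -1.07 and -0.976.

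Of 19 measured genes of the intestinal epithelium, 16 lay in A in both replicates, near the share of all genes. CDX2, a master regulator of intestinal identity, was at 1.17 and 1.18, EPCAM, an epithelial adhesion molecule, at 1.39 and 1.42, and KLF5, a factor of proliferating crypt cells, at 1.57 and 1.63. LGR5, a marker of intestinal stem cells, was in B at -0.298 and -0.262. CEACAM5, the carcinoembryonic antigen, was at -0.93 and -1.39 in SW480 and between 0.841 and 1.11 in the other lines, on chromosome 19, where SW480 had the second eigenvector. Hi-C gives position and contact, not expression, so the tissue of origin was not tested by these genes.

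Of 15 mesenchymal genes, 9 lay in A in replicate 1 and 8 in replicate 2. VIM, the intermediate filament vimentin, made the difference with 0.0695 and -0.146. ZEB1, a repressor of epithelial genes, was at 0.906 and 0.743, and COL3A1, a fibrillar collagen, at -1.35 and -1.27. Of 14 measured blood cell genes, 8 lay in A in both replicates, among them CD3E, a chain of the T cell receptor complex, at 1.39 and 1.46. HBB, adult beta-globin, was at -0.904 and -0.994.

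Of 16 colorectal cancer genes, 14 lay in A in both replicates. APC, a brake on Wnt signalling, was at 0.992 and 1.09, and SOX9, a factor of crypt stem cells, was in B at -0.75 and -0.7. Of 16 genes of chromatin architecture, 15 lay in A in replicate 1 and 16 in replicate 2. CTCF was at 1.36 and 1.41, and RAD21, a cohesin subunit, at 0.387 and 0.413. MAU2, part of the cohesin loader, had opposite signs, at -0.0264 and 0.182, and lies on chromosome 19.

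**Figure D4:**
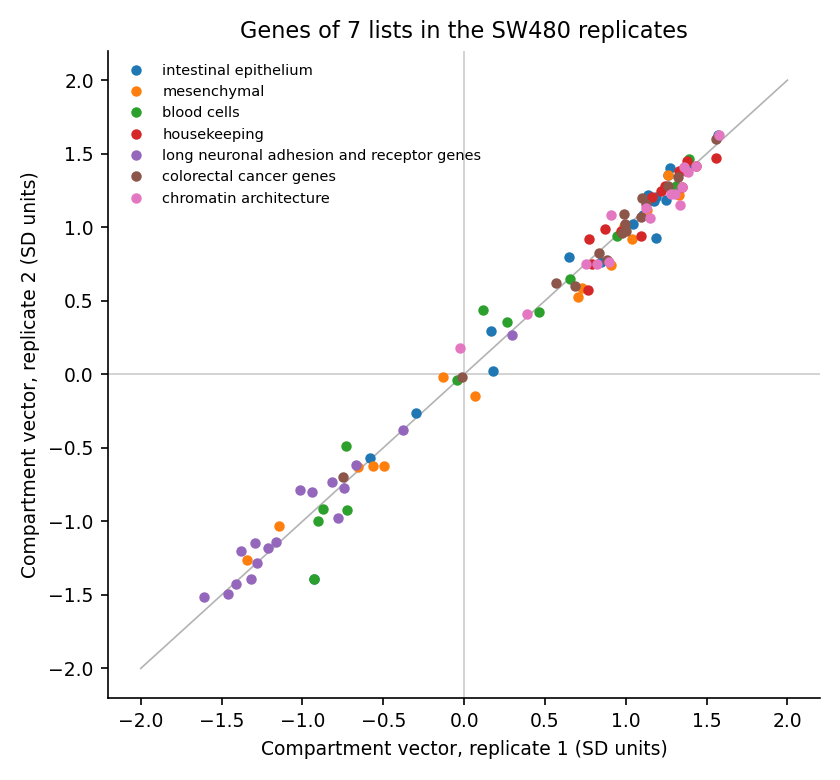
The compartment vector of genes of 7 lists is plotted for replicate 1 against replicate 2, in units of its SD, with the line of equality. Housekeeping genes lie above 0 in both replicates, and 2 genes, VIM and MAU2, have opposite signs.

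Contacts within a distance were compared last, because counting error is largest for single bin pairs. At 40 kb, where a bin pair had 148 read pairs in replicate 1 and 151 in replicate 2 on average, the observed over expected values correlated with r = 0.913. The correlation fell to 0.86 at 200 kb, 0.6 at 1 Mb, 0.375 at 2 Mb, 0.129 at 5 Mb, 0.0732 at 10 Mb and 0.0562 at 20 Mb. At 10 Mb it was not the highest, since replicate 2 and OE33 correlated with r = 0.0735. Counting error made up 9.69% of the variance of replicate 1 at 40 kb, 37.2% at 1 Mb and 80% at 5 Mb. After it was taken out, the estimate passed 1 at 40 kb (1.01), and the correlation was 0.997 at 200 kb and 0.96 at 1 Mb, against 0.905 to 0.91 and 0.833 to 0.856 between replicate 1 and the other lines. At every step of 40 kb from 40 kb to 5 Mb, the replicates correlated more than any replicate did with another line. The mean over these distances was 0.384, against 0.31 to 0.33. Its level and the gap depended on the setting, with 0.583 against a mean of 0.248 without iterative correction and 0.778 against 0.633 for means over 3 by 3 bins.

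The correlation at 2 distances stood above their neighbours in the replicates. At 3120 kb the correlation was 0.354, against 0.263 at 3 bins less and 0.225 at 3 bins more. The bin pair with the largest values in both replicates at this distance joins chr8:126480001-126520000 and chr8:129600001-129640000, on either side of MYC. It held 709 read pairs in replicate 1 and 767 in replicate 2. Its corrected values, as deposited, were 123 and 122 times the mean of chromosome 8 at this distance. In the values as deposited, the correlation at this distance was 0.361 with that bin pair and 0.229 without it. At 1920 kb the correlation was 0.534, and it also rose between replicates and other lines, as the plot of correlation by distance shows. The largest bin pair there, on chromosome 15, held 57 read pairs in each replicate. Leaving it out moved the correlation of the deposited values from 0.434 to 0.416. These start below 0.534, and what the pair contributes to the 0.534 was not tested.

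**Figure D5:**
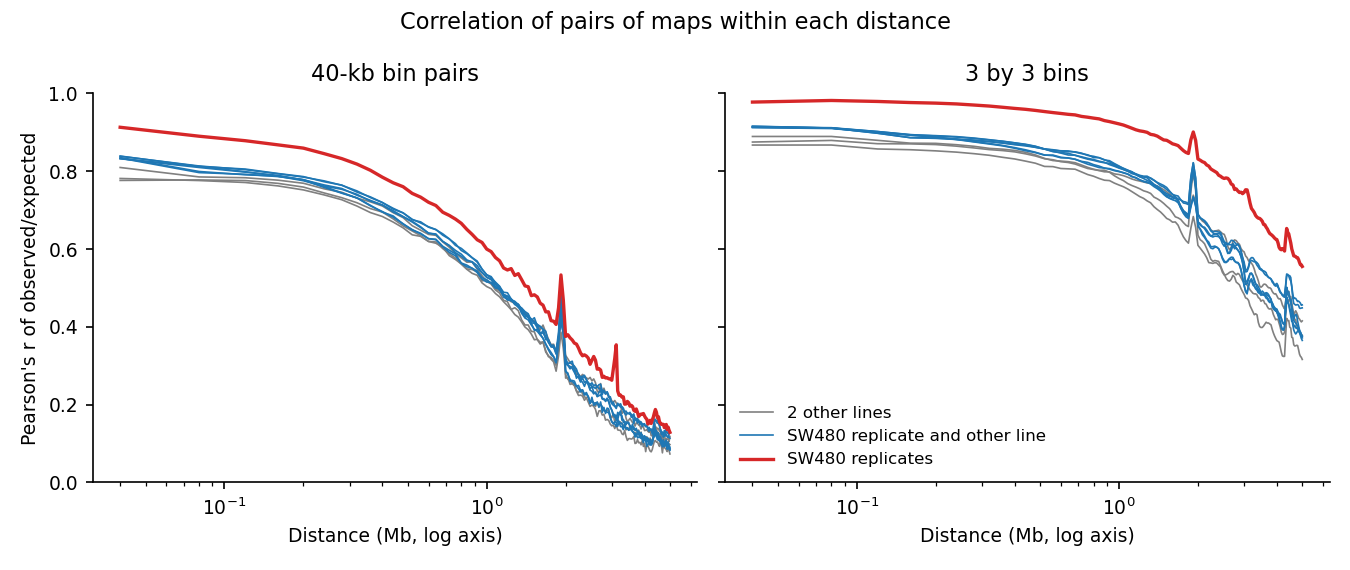
Pearson's r of observed over expected contacts is plotted against distance (log axis) for single 40-kb bin pairs (left) and means over 3 by 3 bins (right), for the SW480 replicates (red), a replicate and another line (blue) and pairs of other lines (grey). On the left the red line is above the blue lines from 40 kb to 5 Mb and falls from 0.913 to 0.129 for single bin pairs.

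The shares of read pairs by distance and the strength of compartments were also alike. Pairs within 200 kb made up 35% of replicate 1 and 34.9% of replicate 2, and pairs over 20 Mb apart 10.4% and 10.5%. In the other lines these shares ran from 35.5% to 39.6% and from 7.84% to 13.4%. In the blocks with the most extreme vectors, mean contact within A and within B was 4.9 times that between them in replicate 1 and 4.86 times in replicate 2. The other lines had ratios of 6.5 (OE33), 4.82 (SNU-C1) and 3.7 (HCC1954).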

How the data were processed

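Reads of MboI in situ Hi-C libraries were mapped by the authors to hg19 (BWA-MEM), stripped of duplicates (Picard) and binned, and matrices were corrected iteratively. The methods name no versions of these tools for Hi-C and no filter on mapping quality. The deposited values are a signal, the corrected contact of pairs of 40-kb bins. Corrected values are read pairs multiplied by a factor for each bin, and these factors were fitted in 45 rounds to pairs separated by 5 Mb or more. Values up to 20.5 read pairs were whole within 0.02 for 99.8% to 100% of values in the 5 maps compared.

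Read pairs within autosomes, without pairs within a bin, were thinned at random to 63521353 and corrected again per chromosome with 60 iterations. Blocks of 200 kb needed 3 usable bins. The compartment vector was, of the first 3 eigenvectors, the one most correlated with gene density. Boundaries used a slope over 200 kb. Intervals are exact binomial at 95% and treat boundaries, bins or blocks as independent, so they may be too narrow. Genes were taken from GENCODE lifted to GRCh37. The 10 strongest shared boundaries, the 5 strongest boundaries of 1 replicate, the 5 blocks, chromosomes and windows with the largest differences and 7 gene lists are described, except for a few items that are not reported here. The members and lists were chosen with earlier results of these data known. Alternatives changed 1 choice at a time. Calculations were tested on simulated data. Computation used Numba 0.67.0, Matplotlib 3.10.9, PyArrow 21.0.0, NumPy 2.4.6, pandas 2.3.3 and SciPy 1.17.1 under Python 3.11.15.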

Additional observations from a re-analysis of the deposited data

Results flagged for a closer look

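The SW480 maps also held read pairs between chromosomes, which were not used above, apart from those given for chromosomes 5 and 20. There were 162055 in replicate 1 and 166056 in replicate 2 between autosomes, or 0.254% and 0.255% of the autosomal read pairs. The SW480 maps listed 174240 and 178585 values between chromosomes, against 19500640 to 50195475 in the other lines, and no source used here explains this gap. The ratios below describe only the listed pairs, and whether these were selected was not tested. Relative to the coverage of both chromosomes, pairs between chromosomes 5 and 20 were the most frequent of 231 combinations, at 3.7849 times the mean in replicate 1 and 3.7278 times in replicate 2. Chromosomes 10 and 12 were at 3.07 and 3.12 times, from 2626 and 2729 read pairs. Chromosomes 21 and 22 were at 3.1460 and 2.8284 times, from only 118 and 109 read pairs, which was second highest in replicate 1 but not in replicate 2. The replicates correlated over the 231 combinations with r = 0.983.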

How the results depend on the processing

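In every setting tried, the replicates were closer to each other than the mean of the 6 comparisons with other lines, for all 6 measures. The order against each single line was not checked under these settings. Under other settings, 25 values moved and 89 stayed within their exact 95% interval or within 1 SD over the 22 chromosomes. Leaving out replicate 1 or 2 gave mean correlations with the other lines of 0.504 to 0.506 for coverage and, equal as rounded for both, 0.91 for insulation, 0.836 for compartments and 0.319 within distances, 71.8% of boundaries and 15.3% of opposite signs. Coverage of the replicates correlated with 0.998 in blocks of 200 kb and 0.999 in blocks of 1 Mb. A window of 480 kb gave an insulation correlation of 0.994 and boundaries found at 94%, and 74% in the other lines. Boundaries in the same bin only gave 73.5%, and 35.9% in the other lines, and boundaries within 2 bins gave 96.5% and 81.8%. With the deposited correction, the values with the other lines were 0.863 for insulation and 69% for boundaries. Without correction they were 0.611 and 64.4%, and the correlation within distances was 0.583 between the replicates and 0.248 with the other lines. Spearman's correlation within distances gave 0.315 and 0.267, and 3 by 3 bins 0.778 and 0.633. The compartment correlation of the replicates was 0.976 at a coverage of at least 0.5 and 0.977 with 1 vector per arm. Opposite signs were at 3.43% at that coverage, 1.89% in blocks of 400 kb and 3.2% with 1 vector per arm, which gave 16% with the other lines. The setting without chromosome 19 was chosen after seeing the data. No paired analysis was possible because each other line had 1 map. Depth limits the contacts beyond 2 Mb, where counting error made up most of the variance in replicate 1. The causes of these shifts were not tested.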
